A study of Mus musculus with 12 samples.

Results

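The enzymes described here write or erase methyl groups on histone lysines, together with relatives in the same families. Members were the rows of the deposited table whose gene symbol began with Kdm (families 1 to 8), Kmt2, Kmt5, Setd, Smyd, Prdm or Nsd and a number, or was *Dot1l* or *Ash1l*, and the Y-linked *Kdm5d* was left out. They numbered 57 of 21859 genes. The cells were GFRa1+/KIT- spermatogonia, the undifferentiated fraction that contains the spermatogonial stem cells, sorted from adult male mice that all carried GFRa1-EGFP, a reporter that marks cells expressing the GDNF receptor gene *Gfra1*. Cryptorchidism was induced on 1 side by fixing the left testis inside the abdomen, with the scrotal right testis as control. The control group was 5 libraries from scrotal testes (genotype given as WT in the labels), and the cryptorchid group was 7 libraries from the displaced testes, both taken on day 10 after surgery. The labels do not say which libraries came from the same mouse, and *P*-values measure only the spread between libraries. Control testes were digested at a lower temperature than cryptorchid testes, so the digestion and the surgery cannot be told apart.

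Methylation of a histone lysine changes which proteins bind the nucleosome, and its effect depends on the residue. Methylation of H3K4 marks promoters and enhancers in use, H3K36 and H3K79 methylation mark transcribed gene bodies, and H3K9 and H3K27 trimethylation mark silenced chromatin. Writers of these marks carry a SET domain, apart from DOT1L, and take the methyl group from S-adenosylmethionine. Erasers are either the flavin-dependent LSD enzymes or the JmjC enzymes, which need iron, oxygen and 2-oxoglutarate. In the male germline several of them are needed for stem cell maintenance, for meiosis or for the packaging of sperm chromatin. The study that made these data asked about H3K27me3 in cryptorchid spermatogonia, for which KDM6A and KDM6B are the erasers.

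Each library held the cDNA of about 200 cells, made by Smart-seq2, a method that amplifies full-length cDNA by PCR without molecular identifiers. Reads counted on genes were 4511730 to 24345368 in control and 3306771 to 20027902 in cryptorchid libraries. Values are log2 RPM, the log2 of reads scaled to the total of the library (RPM), and a gene without reads carries a value that stands for 0.9 reads. Of the 55 members tested, 49 had at least 10 reads in every library. Replicates 1 to 3 of both groups stood apart from the replicates with higher numbers. Reads on genes were 6800360 to 24345368 in replicates 1 to 3 and 3306771 to 5481947 in the later replicates. Genes took 74.5% to 94.0% of the implied library total, against 94.8% to 99.9%. Differences are therefore also given within each of these 2 sets of libraries. Depth and other traits of the sets cannot be told apart. All 14 markers of undifferentiated spermatogonia had reads, and their summed level was 1208 to 1788 RPM in control and 1353 to 2077 RPM in cryptorchid libraries. The 7 markers of differentiating spermatogonia summed to 240 to 800 RPM in control and 300.3 to 840 RPM in cryptorchid libraries, and the 11 spermatocyte markers to 449 to 748 and 622 to 1025 RPM. The 9 spermatid markers summed to 512 to 2840 RPM in control (median 1188) and 15.2 to 1958 RPM in cryptorchid libraries (median 319), and 3 of the 9 had a limma *P* under 0.05. Markers of cells outside the germline were lower: 46.4 to 254 and 43.7 to 266 RPM for 11 Sertoli cell genes, 9.04 to 16.1 and 6.42 to 48.2 RPM for 6 Leydig cell genes, and 1.95 to 16.5 and 1.04 to 14.7 RPM for 5 peritubular myoid genes. The 7 macrophage genes summed to 3.98 to 23.9 RPM in control (median 17.3) and 11.4 to 36.9 RPM in cryptorchid libraries (median 25.2). The 6 lymphocyte genes summed to 1.88 to 5.26 and 1.16 to 18.9 RPM, and the 5 endothelial genes to 9.06 to 23.0 (median 19.3) and 11.6 to 40.0 RPM (median 29.3). A limma *P* under 0.05 was also found for 2 endothelial genes and for 1 gene each of the undifferentiated, differentiating, spermatocyte, myoid and macrophage lists. The exact rank sum *P* of the summed level was 0.0480 for the spermatid and the macrophage list, and 0.0732 for the spermatocyte and the endothelial list. The part of these other cells in the differences below was not tested. In pooled cells, a smaller number of cells that express a gene and less RNA in each of them cannot be told apart.

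The start regions of the members were rich in CG dinucleotides, the letters on which DNA methylation falls. RefSeq (GRCm38.p6) promoter windows, which run from 250 bases before to 50 bases after a transcription start, were matched for 40 of the 57 members, with 54 windows in all. The members' windows held a median of 24 CG dinucleotides, and the 20467 windows of all matched genes a median of 14. The windows of the 2 members that fell, of *Kdm2b*, which rose, and of the H3K27 eraser gene *Kdm6a* are shown here 5′ to 3′ on the strand of the gene, with every CG in capitals. *Setd7* is at chr3:51560774-51561073 (minus strand), *Smyd2* at chr1:189922242-189922541 (minus strand), *Kdm2b* at chr5:122989050-122989349 (minus strand, the nearest of its 4 windows to the annotated gene start) and *Kdm6a* at chrX:18162325-18162624 (plus strand).
Setd7: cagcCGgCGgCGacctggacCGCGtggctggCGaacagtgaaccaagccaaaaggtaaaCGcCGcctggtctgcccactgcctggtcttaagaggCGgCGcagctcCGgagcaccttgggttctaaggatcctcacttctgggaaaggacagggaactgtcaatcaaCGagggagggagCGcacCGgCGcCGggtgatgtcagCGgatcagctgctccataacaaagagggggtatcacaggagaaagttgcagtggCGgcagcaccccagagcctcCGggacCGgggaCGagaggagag
Smyd2: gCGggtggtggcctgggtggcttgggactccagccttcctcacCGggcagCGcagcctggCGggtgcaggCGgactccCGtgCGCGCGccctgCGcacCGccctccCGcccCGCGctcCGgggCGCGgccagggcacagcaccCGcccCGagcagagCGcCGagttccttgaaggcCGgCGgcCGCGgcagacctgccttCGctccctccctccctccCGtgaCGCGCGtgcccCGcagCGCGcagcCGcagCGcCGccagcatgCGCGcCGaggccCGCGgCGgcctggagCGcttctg
Kdm2b: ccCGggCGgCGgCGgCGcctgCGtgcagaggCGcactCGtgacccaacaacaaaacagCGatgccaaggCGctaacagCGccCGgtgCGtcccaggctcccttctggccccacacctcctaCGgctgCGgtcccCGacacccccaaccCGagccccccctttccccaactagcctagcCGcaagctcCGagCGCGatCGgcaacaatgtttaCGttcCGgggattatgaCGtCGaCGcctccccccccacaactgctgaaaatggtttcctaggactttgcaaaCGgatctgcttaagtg
Kdm6a: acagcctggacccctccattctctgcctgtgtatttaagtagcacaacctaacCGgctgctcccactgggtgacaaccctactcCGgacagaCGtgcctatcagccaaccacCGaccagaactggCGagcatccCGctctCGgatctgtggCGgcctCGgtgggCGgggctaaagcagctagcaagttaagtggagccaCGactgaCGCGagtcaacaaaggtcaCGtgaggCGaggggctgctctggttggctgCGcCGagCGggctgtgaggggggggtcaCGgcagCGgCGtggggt
The *Smyd2* window held 43 CG dinucleotides, that of *Kdm2b* 28, and those of *Setd7* and *Kdm6a* 21 each. Of the other members that rose, *Kdm4d* had 17 in its window, and *Nsd3* was not matched. Because the displaced testis is warmer than the scrotum, the windows were also searched for GAANNTTC, a pair of the inverted GAA units to which heat shock factors bind. This word reads the same on both strands, so 1 search covers both. It was found in 4 of the 54 windows (7.41%), against 7.20% of the windows of all genes, and in none of the 4 windows shown. The members with the word were *Kdm3a*, *Kdm5b*, *Prdm1* and *Prdm9*.

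In the fit without pairing, few writers or erasers differed between cryptorchid and control spermatogonia beyond the spread between libraries. Of 55 members tested, 3 rose (*Kdm2b*, *Nsd3* and *Kdm4d*) and 2 fell (*Setd7* and *Smyd2*) at an unadjusted limma *P* under 0.05. These 5 were 9.09% of the members, and 9.48% of all 16932 genes tested passed the same threshold, 5.67% upwards and 3.82% downwards, so the members passed about as often as genes in general. Among all genes the split was 960 higher and 646 lower, and it became 818 higher and 884 lower after quantile normalization, whereas among the members the counts were 3 and 2 under both, with *Kdm3b* in place of *Kdm4d* after quantile normalization. *Kdm4d* was the only member that also reached a 2-fold difference (5.92% of all genes did). No member passed after Benjamini-Hochberg adjustment over all genes with limma (0.0118% of all genes did), and none did with limma-voom on the recovered reads (0.0177% of all genes did). Neither fit pairs the libraries. With the replicate number as a block in limma, *Kdm5b* and *Nsd3* passed the adjusted threshold (3.64% of the members, against 5.60% of all genes). In that fit 23.6% of the members had an unadjusted *P* under 0.05, against 22.2% of all genes. In the voom fit 5 members had an unadjusted *P* under 0.05 (9.09%, against 11.6% of all genes). In the limma fit without pairing, the adjusted *P*-values of the members ran from 0.366 to 0.991. In no member were the groups fully separated, which was the case for 0.839% of all genes. Mean levels were higher in cryptorchid libraries for 38 of 55 members (69.1%, against 56.7% of all genes), and the median difference was 0.18 on the log2 scale, against 0.099 over all genes. For 21 members (38.2%, against 25.3% of all genes) the 95% interval of the difference lay within 2-fold in both directions.

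**Figure D1:**
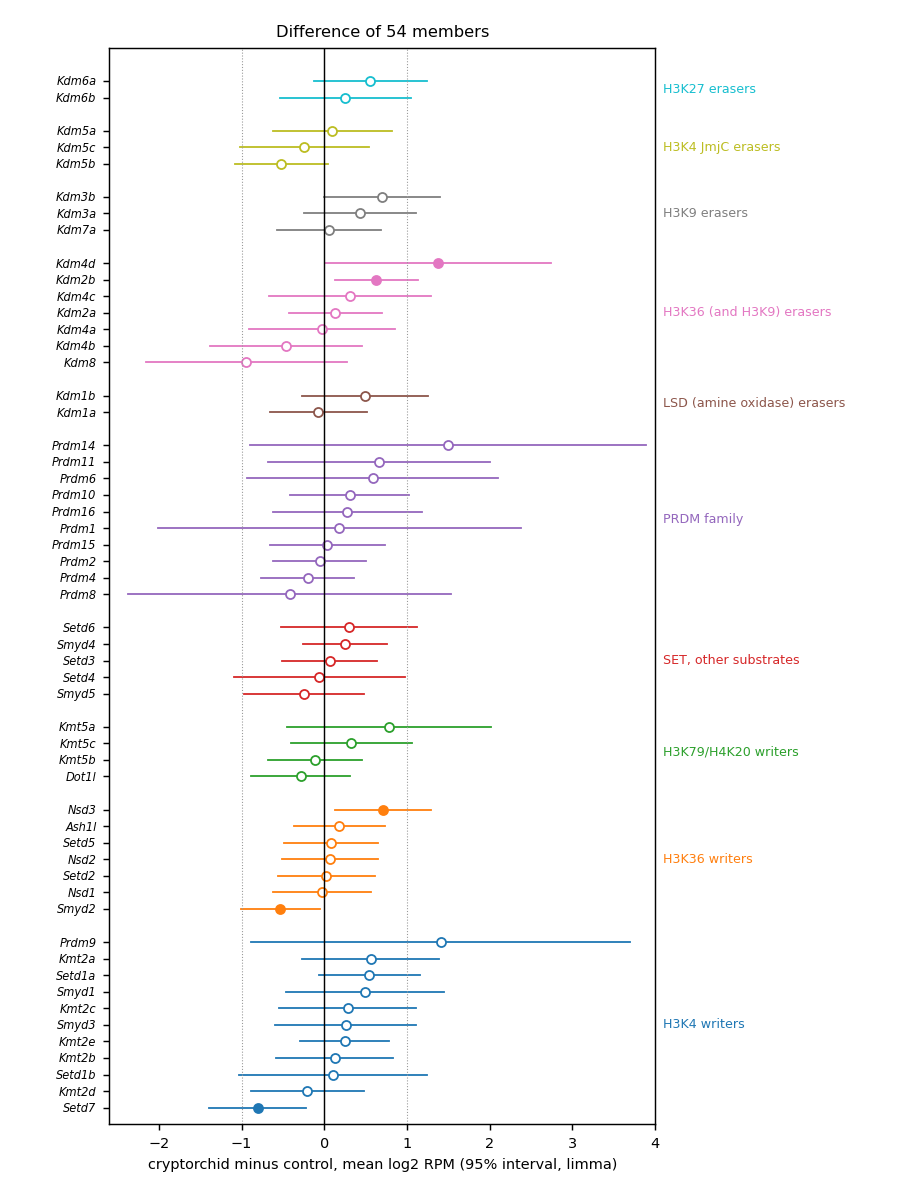
Difference in mean log2 RPM (cryptorchid minus control, x axis) of 54 of the 55 members tested, grouped by role, with 95% intervals from limma across 5 control and 7 cryptorchid libraries; filled points have an unadjusted P under 0.05 and dotted lines mark 2-fold. The 5 filled points are Setd7 and Smyd2 to the left of 0 and Kdm2b, Nsd3 and Kdm4d to the right. Prdm14, Prdm9, Prdm1, Prdm8 and Prdm6 have the widest intervals.

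Among the 11 writers of H3K4 methylation, *Setd7* fell and none rose at the unadjusted threshold, at which 3.82% of all genes were lower and 5.67% higher. SETD7 places a single methyl group on H3K4 and also methylates proteins other than histones. The *Setd7* gene lies on chromosome 3 from 51515319 to 51560879 (GRCm38, minus strand). Its log2 RPM was 4.89, 5.47, 5.98, 5.39 and 5.44 in the control libraries, and 4.28 at the lowest, 4.62 at the median and 5.08 at the highest of the cryptorchid libraries. All 7 cryptorchid libraries were below the control median, and the groups overlapped through control replicate 1 and the highest cryptorchid library. The mean was 5.43 ± 0.38 (SD, n = 5) in the control group and 4.63 ± 0.29 (SD, n = 7) after surgery, a difference of -0.81 on the log2 scale (SE 0.278, limma *P* = 0.00968, adjusted *P* = 0.366, exact two-sided rank sum *P* = 0.00505). The difference was -0.88 within replicates 1 to 3 and -0.74 within the later replicates, and it passed the unadjusted threshold with any 1 library left out.

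The COMPASS enzymes, which place most H3K4 methylation, did not pass. *Setd1a*, a writer of H3K4me3 at promoters, was 4.86, 5.88, 6.02, 5.92 and 5.49 log2 RPM in control libraries and ran from 5.48 through a median of 6.16 to 6.96 in cryptorchid libraries. Of the latter, 5 were above every control library. The difference was 0.54 (SE 0.290, limma *P* = 0.0786, adjusted *P* = 0.582, exact rank sum *P* = 0.106). The exons of *Setd1a* share 3523 bases with *Gm49388* on the same strand, so its reads may be split between both annotations. The differences of the MLL-type genes were 0.56 for *Kmt2a*, 0.12 for *Kmt2b*, 0.28 for *Kmt2c*, -0.21 for *Kmt2d* and 0.25 for *Kmt2e*, each with a 95% interval that included 0. *Kmt2e* is counted here by family, although its product has little or no activity of its own. KMT2C and KMT2D act at enhancers, and their genes were on opposite sides of 0. *Prdm9*, whose product marks the sites of meiotic recombination, had the widest spread of the class: -3.61, 0.93, 2.43, 1.63 and 1.15 in control libraries and -1.22 to 3.57 (median 2.79) in cryptorchid libraries. Its difference of 1.41 had a 95% interval from -0.89 to 3.70, and the spermatocyte markers, genes of the stage at which PRDM9 acts, summed to a median of 656 RPM in control and 947 RPM in cryptorchid libraries. Their part in the *Prdm9* values was not tested.

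The 7 writers of H3K36 methylation moved both ways. *Smyd2*, whose product methylates H3K36 and proteins such as p53, had 6.87, 7.20, 7.07, 6.69 and 6.71 log2 RPM in control libraries and 5.95, 6.40 and 6.76 at the lowest, median and highest of the cryptorchid libraries. The highest cryptorchid library was above control replicates 4 and 5, and the 6 others were below every control library. *Smyd2* lies on chromosome 1 from 189880492 to 189922363 (minus strand). It fell by 0.53 on the log2 scale (SE 0.224, limma *P* = 0.0299, adjusted *P* = 0.470, exact rank sum *P* = 0.0101). The difference was -0.54 within replicates 1 to 3 and -0.42 within the later replicates. It missed the threshold without control replicate 2 or without cryptorchid replicate 5 or 7, and over all single omissions it ranged from -0.59 to -0.46.

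*Nsd3* rose. NSD3 places 1 or 2 methyl groups on H3K36. The gene lies on chromosome 8 from 25601601 to 25719667 (plus strand). Control libraries had 5.03, 4.99, 5.75, 5.96 and 6.14 log2 RPM, and cryptorchid libraries 5.80 at the lowest, 6.24 at the median and 6.78 at the highest. All 7 cryptorchid libraries were above the control median, and control replicates 4 and 5 lay within the cryptorchid range. The difference was 0.71 (SE 0.275, limma *P* = 0.0187, adjusted *P* = 0.429, exact rank sum *P* = 0.0303), with 0.80 within replicates 1 to 3 and 0.41 within the later replicates. It missed the threshold when control replicate 1 or 2 was left out, and over all single omissions it ranged from 0.57 to 0.85. With the replicate number as a block it was 0.70 (limma adjusted *P* = 0.0346). The remaining H3K36 writers differed by -0.03 to 0.18: *Nsd1* by -0.03, *Nsd2* by 0.08, *Setd2*, which makes H3K36me3 behind RNA polymerase II, by 0.03, *Setd5* by 0.08 and *Ash1l* by 0.18. For these 5 genes the 95% interval lay within 2-fold. The activity of SETD5 on H3K36 is disputed.

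None of the 4 writers of H3K79 and H4K20 methylation passed. *Dot1l* encodes the H3K79 methyltransferase, which is needed for the self-renewal of spermatogonial stem cells. It was 6.42 ± 0.54 (SD, n = 5) log2 RPM in the control group and 6.14 ± 0.40 (SD, n = 7) in the cryptorchid group, and 6 of 7 cryptorchid libraries were below the control median. The difference was -0.28 (SE 0.285, limma *P* = 0.331, adjusted *P* = 0.790, exact rank sum *P* = 0.530). *Kmt5a*, the writer of H4K20me1, was 3.53 ± 1.31 in control and 4.31 ± 1.02 in cryptorchid libraries, a difference of 0.78 (SE 0.586, limma *P* = 0.199, adjusted *P* = 0.708, exact rank sum *P* = 0.268). Control replicates 1 and 3 (2.63 and 1.65) and cryptorchid replicate 1 (2.15) were far below the rest, which lay between 4.11 and 5.20. *Kmt5b* and *Kmt5c*, which extend H4K20me1 to H4K20me2 and H4K20me3, differed by -0.11 and 0.33.

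The 5 SET-domain genes whose products mainly methylate other proteins did not pass either. *Setd3*, which methylates a histidine of actin, differed by 0.06, *Setd4* by -0.06 and *Smyd5* by -0.24. *Smyd4* had the smallest *P*-value of this group, with 6.18 ± 0.32 (SD, n = 5) in the control group and 6.43 ± 0.30 (SD, n = 7) in the cryptorchid group (difference 0.25, SE 0.240, limma *P* = 0.310, adjusted *P* = 0.774, exact rank sum *P* = 0.202). For *Setd6*, whose product methylates the NF-κB subunit RELA, the control libraries spanned 2.90 to 4.97 and the cryptorchid libraries lay from 3.89 to 5.48 (difference 0.30, SE 0.393, limma *P* = 0.458, adjusted *P* = 0.849, exact rank sum *P* = 1).

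PRDM proteins carry a PR domain, a variant of the SET domain, and zinc fingers, and many act as sequence-bound repressors rather than as enzymes. Of the 13 PRDM genes other than *Prdm9*, 11 could be tested and none passed. *Prdm12* and *Prdm13* failed the filter on low values: *Prdm12* had no reads in 2 control and 6 cryptorchid libraries, and *Prdm13* had none in 4 control and 7 cryptorchid libraries. *Prdm14*, which with *Prdm1* specifies primordial germ cells in the embryo, had no reads in 2 control and 5 cryptorchid libraries. Its most reads were 7 in a control library and 78 in a cryptorchid library, and its 2 cryptorchid libraries with reads stood at 1.81 (replicate 1) and 1.69 (replicate 5) log2 RPM, above all other libraries. *Prdm14* passed the filter only through those 2 libraries, and its difference of 1.50 (SE 1.14, limma *P* = 0.206, adjusted *P* = 0.712, exact rank sum *P* = 0.530) depends on the value given to a gene without reads. *Prdm1* encodes the repressor BLIMP1. It was 3.18, 3.65, -3.50, 3.73 and 1.41 in control libraries and lay between 0.60 and 3.18 in cryptorchid libraries. Control replicate 3, without reads, was its lowest library, and the groups overlapped. *Prdm11* ran from 0.01 to 3.67 in control and from 2.13 to 4.26 in cryptorchid libraries (difference 0.66, SE 0.638, limma *P* = 0.312, adjusted *P* = 0.775, exact rank sum *P* = 0.755). *Prdm2* differed by -0.06, *Prdm4* by -0.20 and *Prdm15* by 0.04, with intervals within 2-fold.

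The LSD enzymes remove 1 or 2 methyl groups from H3K4. *Kdm1a* (LSD1), the catalytic subunit of the CoREST repressor complex, was 6.41 ± 0.34 (SD, n = 5) log2 RPM in the control group and 6.34 ± 0.51 (SD, n = 7) in the cryptorchid group. The difference was -0.07 (SE 0.280, limma *P* = 0.802, adjusted *P* = 0.955, exact rank sum *P* = 1), with a 95% interval from -0.66 to 0.52. *Kdm1b* (LSD2), known for its role in setting imprints in oocytes, was 7.56, 6.11, 7.01, 6.22 and 6.59 in control libraries and 5.59, 7.28 and 7.84 at the lowest, median and highest of the cryptorchid libraries. Cryptorchid replicate 2 was the lowest of all 12 libraries, and the other 6 were above the control median. The difference of 0.49 did not pass (SE 0.361, limma *P* = 0.190, adjusted *P* = 0.701, exact rank sum *P* = 0.202). Without cryptorchid replicate 2 it was 0.76 and passed the unadjusted threshold (adjusted *P* = 0.340), and it was -0.02 within replicates 1 to 3 and 1.02 within the later replicates. Exons of *Kdm1b* overlap *Dek* by 505 bases on the other strand.

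Of the 7 JmjC erasers of the KDM2, KDM4 and KDM8 families, classed here by action on H3K36, on H3K9 or on both, 2 rose. That is at the unadjusted threshold, at which 5.67% of all genes were higher, and neither passed after adjustment. *Kdm2b* removes methyl groups from H3K36 and, through its CXXC zinc finger, brings a PRC1 complex to unmethylated CG islands. Its level was 7.19, 6.84, 6.78, 7.14 and 6.55 log2 RPM in control libraries and 6.81, 7.66 and 7.76 at the lowest, median and highest of the cryptorchid libraries. All cryptorchid libraries other than replicate 2 were above every control library. *Kdm2b* lies on chromosome 5 from 122870665 to 122989823 (minus strand). It rose by 0.63 (SE 0.237, limma *P* = 0.0160, adjusted *P* = 0.415, exact rank sum *P* = 0.0177), by 0.43 within replicates 1 to 3 and by 0.81 within the later replicates. The threshold was missed when control replicate 5 was left out, and without cryptorchid replicate 2 the difference was 0.75 (adjusted *P* = 0.217). Its exons share 627 bases with *Rnf34* on the other strand, and no source gives the strand of the counts. *Rnf34* itself differed by 0.25 (adjusted *P* = 0.832).

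*Kdm4d* had the largest difference of the members that passed, at a low level. KDM4D acts on H3K9 rather than H3K36 and is known for its expression in the testis. Control libraries had 1.87, -0.60, 1.65, 2.18 and 2.28 log2 RPM, and cryptorchid libraries 1.27, 2.63 and 3.93 at the lowest, median and highest. Cryptorchid replicate 6 lay among the control values, and the 6 others were above every control library. The gene is on chromosome 9 from 14462548 to 14500482 (minus strand), and its values rest on 11 to 131 reads a library. It rose by 1.37 (SE 0.647, limma *P* = 0.0479, adjusted *P* = 0.523, exact rank sum *P* = 0.0303). The difference was 1.86 within replicates 1 to 3 and 0.64 within the later replicates, and without control replicate 2, the lowest of all, it was 0.86 and did not pass. The threshold was kept only when control replicate 4 or 5 or cryptorchid replicate 1 or 6 was the library left out, and it was missed after quantile normalization or median centring, with either of the other filters, with array weights and with the library set as a term.

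The remaining erasers of the class differed by -0.94 to 0.31. *Kdm2a*, the close relative of *Kdm2b*, differed by 0.13 with an interval within 2-fold. *Kdm4a*, *Kdm4b* and *Kdm4c*, which remove H3K9me3 and H3K36me3, differed by -0.02, -0.46 and 0.31. *Kdm8* was the lowest, with 4.09, 3.46, 3.35, 4.64 and 4.54 in control libraries and 0.58, 3.27 and 4.39 at the lowest, median and highest of the cryptorchid libraries. Its difference of -0.94 had a 95% interval from -2.15 to 0.27 and was 0.10 within replicates 1 to 3 and -2.01 within the later replicates.

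The 3 genes classed here as H3K9 erasers, *Kdm3a*, *Kdm3b* and *Kdm7a*, had higher means in cryptorchid libraries, and none passed. The KDM4 genes, whose products also act on H3K9, moved both ways. Of these, *Kdm4c* (0.31) and *Kdm4d* (1.37) were higher, and *Kdm4a* (-0.02) and *Kdm4b* (-0.46) were lower. *Kdm3b*, which removes H3K9me1 and H3K9me2, was the member nearest to the threshold. Control libraries had 5.50, 4.59, 4.93, 5.20 and 5.76 log2 RPM, and cryptorchid libraries 4.92, 6.26 and 6.36 at the lowest, median and highest. Cryptorchid replicates 2 and 3 lay within the control range, and the other 5 were above every control library. The difference was 0.70 (SE 0.332, limma *P* = 0.0503, adjusted *P* = 0.529, exact rank sum *P* = 0.106). It was 0.32 within replicates 1 to 3 and 0.83 within the later replicates, and it passed the unadjusted threshold under many other settings, among them quantile normalization (adjusted *P* = 0.435), median centring, no filter, array weights and voom, but not with the library set as a term, a pseudocount of 0.1, a filter at 2, replicates 1 to 3 alone or the exact test. *Kdm3a*, the H3K9 eraser that spermatids need to turn on the genes for transition protein and protamine, was 7.12 ± 0.55 (SD, n = 5) in the control group and 7.55 ± 0.60 (SD, n = 7) in the cryptorchid group (difference 0.43, SE 0.322, limma *P* = 0.198, adjusted *P* = 0.708, exact rank sum *P* = 0.202). In the median of the cryptorchid libraries the spermatid markers were lower (319 RPM against 1188 RPM) and the spermatocyte markers higher (947 RPM against 656 RPM). The part of these cells in the *Kdm3a* values was not tested. *Kdm7a* differed by 0.05, with -0.14 within replicates 1 to 3 and 0.34 within the later replicates.

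The KDM5 enzymes remove H3K4me3 and H3K4me2. *Kdm5b* had the highest mean per exon length of the JmjC erasers in control libraries. Its level was 9.02, 8.51, 9.48, 8.69 and 8.76 log2 RPM in control libraries and 7.88, 8.41 and 8.94 at the lowest, median and highest of the cryptorchid libraries. Of the latter, 6 were below the control median. The difference of -0.52 did not pass in limma (SE 0.266, *P* = 0.0663, adjusted *P* = 0.559), whereas the exact rank sum *P* was 0.0177. It was -0.56 within replicates 1 to 3 and -0.41 within the later replicates, and it passed in limma without control replicate 2 or cryptorchid replicate 3. With the replicate number as a block it was -0.50 (limma adjusted *P* = 0.0279). The X-linked *Kdm5c* differed by -0.24 (SE 0.371, limma *P* = 0.522, adjusted *P* = 0.875, exact rank sum *P* = 0.432) and *Kdm5a* by 0.10.

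KDM6A (UTX) and KDM6B (JMJD3) remove H3K27me3, the mark that PRC2 deposits. The X-linked *Kdm6a* had 4.15, 3.87, 5.08, 5.28 and 4.72 log2 RPM in control libraries and 4.63, 5.27 and 5.64 at the lowest, median and highest of the cryptorchid libraries. The groups overlapped, with 5 of 7 cryptorchid libraries above the control median. The difference was 0.56 (SE 0.326, limma *P* = 0.106, adjusted *P* = 0.615, exact rank sum *P* = 0.202), with a 95% interval from -0.13 to 1.24. *Kdm6b* had 4.24, 6.29, 4.69, 5.83 and 5.90 in control libraries and 4.81, 5.66 and 6.45 at the lowest, median and highest of the cryptorchid libraries. Its control values spread more widely than its cryptorchid values and enclosed 6 of them. The difference was 0.25 (SE 0.377, limma *P* = 0.510, adjusted *P* = 0.870, exact rank sum *P* = 0.876), with a 95% interval from -0.54 to 1.05. Both intervals include 0 and 2-fold.

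**Figure D2:**
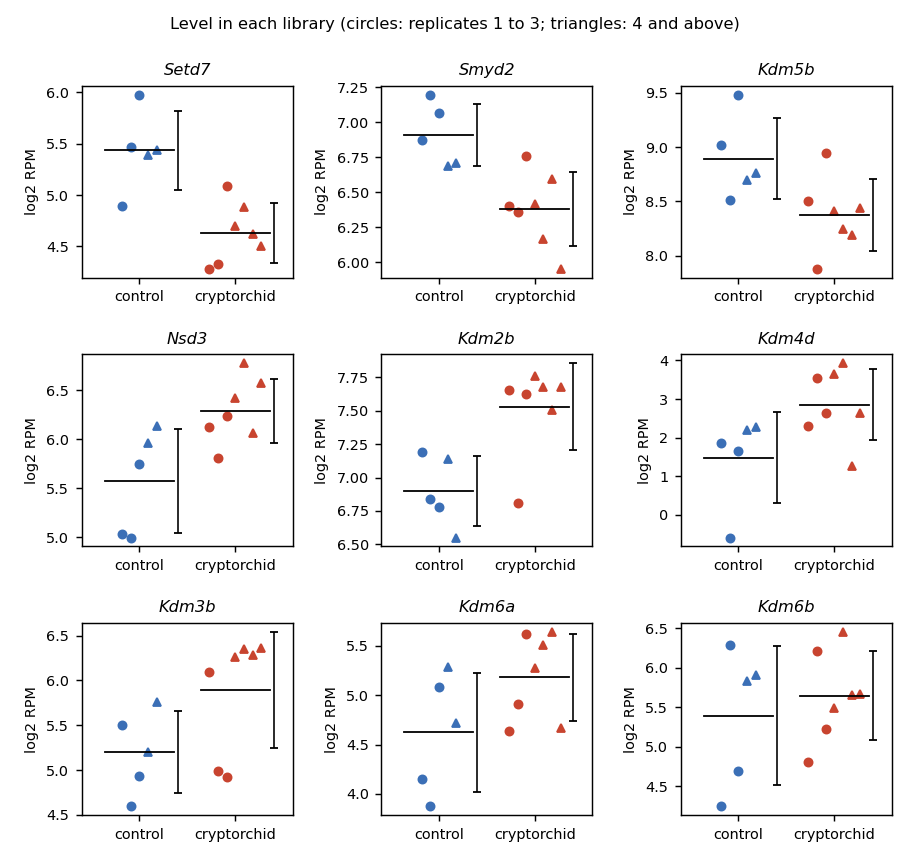
Level (log2 RPM, y axis, scaled separately in each panel) of 9 members in each of the 5 control and 7 cryptorchid libraries; circles are replicates 1 to 3, triangles the later replicates, lines the means and bars the SD. The groups overlap in every panel: a single cryptorchid library reaches the control values in Kdm2b (6.81) and Kdm4d (1.27), and control replicate 1 is the low control in Setd7 (4.89).

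Per kilobase of exon, a rough scale for comparing genes with each other, the members spanned 0.0302 to 50.5 RPM per kb in control libraries. Reads were counted over an annotation from UCSC, which may differ from the GENCODE exons that gave the lengths. The lower end is *Prdm13*, which had no reads in 4 of the 5 control libraries. *Smyd3*, which methylates histones and a kinase of the MAP kinase pathway, was the highest at 50.5 ± 26.9 RPM per kb (SD, n = 5), followed by *Smyd2* at 44.6 ± 6.98, the enhancer writer *Kmt2c* at 32.4 ± 19.7 and *Kdm5b* at 29.6 ± 8.35. The ranges of these 4 genes over the control libraries overlapped, so their order is not fixed by these libraries. In cryptorchid libraries *Smyd3* stood at 60.1 ± 29.4 RPM per kb (SD, n = 7), and *Smyd2* and *Kdm5b* at 31.0 ± 5.60 and 20.5 ± 4.85. Of the LSD enzymes, *Kdm1b* (20.3) and *Kdm1a* (16.8) had overlapping ranges. Of *Kdm3a*, *Kdm3b* and *Kdm7a*, *Kdm3a* was the highest with 17.9 ± 6.89 and *Kdm3b* had the lowest mean with 2.71 ± 0.839. The ranges of *Kdm3a* and *Kdm3b* did not overlap in control libraries, whereas those of *Kdm3b* and *Kdm7a* (4.17 ± 1.39) did. Among the erasers of the KDM2, KDM4 and KDM8 families *Kdm2b* had the highest mean (11.1 ± 2.02) and *Kdm4d* the lowest (1.18 ± 0.583). The range of *Kdm4b* (10.7 ± 5.11) enclosed that of *Kdm2b*, so the order of this pair is not fixed. Among the H3K36 writers *Smyd2* was the highest and *Nsd3* the lowest (3.04 ± 1.05). *Dot1l* (10.4 ± 3.62) was the highest of the H3K79 and H4K20 writers. *Kmt5a* (2.83 ± 1.80) had their lowest mean, with a range that overlapped those of *Kmt5b* and *Kmt5c*. *Kdm6b* was at 6.90 ± 3.58 and *Kdm6a* at 3.14 ± 1.23, with ranges that overlapped. The PRDM family ranged most widely, from *Prdm13* (0.0302, mostly from the value given to a gene without reads) to *Prdm4* (18.2 ± 6.73). *Prdm9* (0.589 ± 0.449) had the lowest mean of the H3K4 writers, with a range that overlapped that of *Setd1b* (0.984 ± 0.663).

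**Figure D3:**
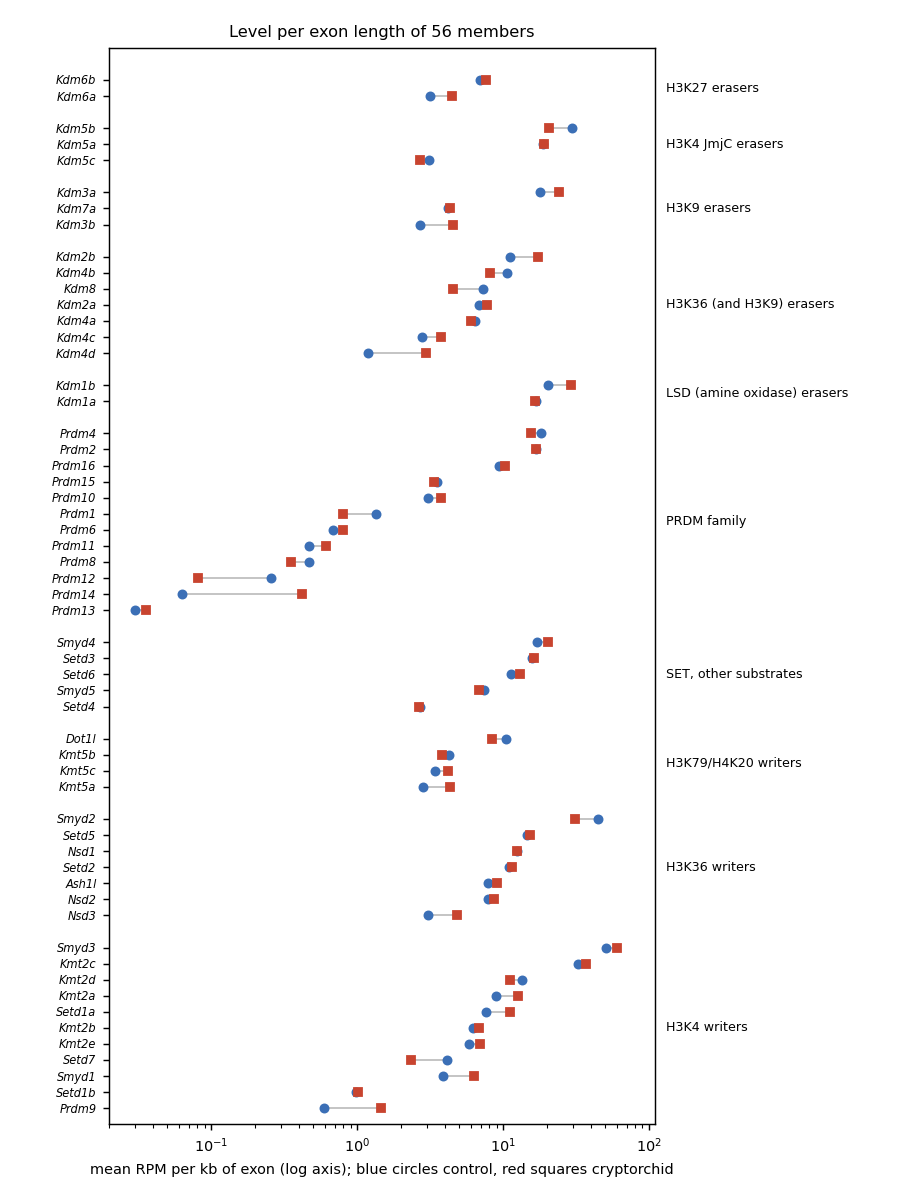
Mean level in RPM per kb of exon (log axis) of 56 of the 57 members by role, with control libraries (n = 5) as blue circles and cryptorchid libraries (n = 7) as red squares. The members span from 0.0302 to 50.5 RPM per kb in control libraries, and the pairs of points lie close together for most of them. The lowest, Prdm13, had no reads in 4 of the 5 control libraries.

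Differences within replicates 1 to 3 and within the later replicates had the same sign for 34 of 55 members, and the share of all genes was not counted. By class these were 18 of 27 writers, 9 of 17 erasers and 7 of 11 PRDM genes. Without the share of all genes, these counts are not read as a difference between the classes. *Setd7*, *Smyd2*, *Kdm2b*, *Nsd3* and *Kdm4d* were among them. These members were picked by their difference over the same 12 libraries, so their equal signs are not separate support. Neither of the LSD genes kept its sign. The 2 sets of libraries, which also differed in depth, themselves differed for many members. With the condition in the model, 13 of 55 members (23.6%) had a limma *P* under 0.05 for the library set, all of them higher in the later replicates. Of all genes 23.3% passed the same threshold, and 3401 of these 3952 genes were also higher in the later replicates. After adjustment over all genes, 0 members passed, against 5.92% of all genes. The strongest were *Kmt2a* (1.02, adjusted *P* = 0.0571), *Setd2* (0.70), *Smyd1* (1.10), *Kdm2a* (0.64) and *Kmt5a* (1.41), and these genes were picked after their values were seen. The later set held 4 of 7 cryptorchid and 2 of 5 control libraries. With the set as a term, the median difference of the members was 0.094, and 2 members were higher and 2 lower at *P* under 0.05 (7.27%, against 11.4% of all genes). They were *Kdm2b* (0.61), *Nsd3* (0.62), *Setd7* (-0.82) and *Smyd2* (-0.48).

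**Figure D4:**
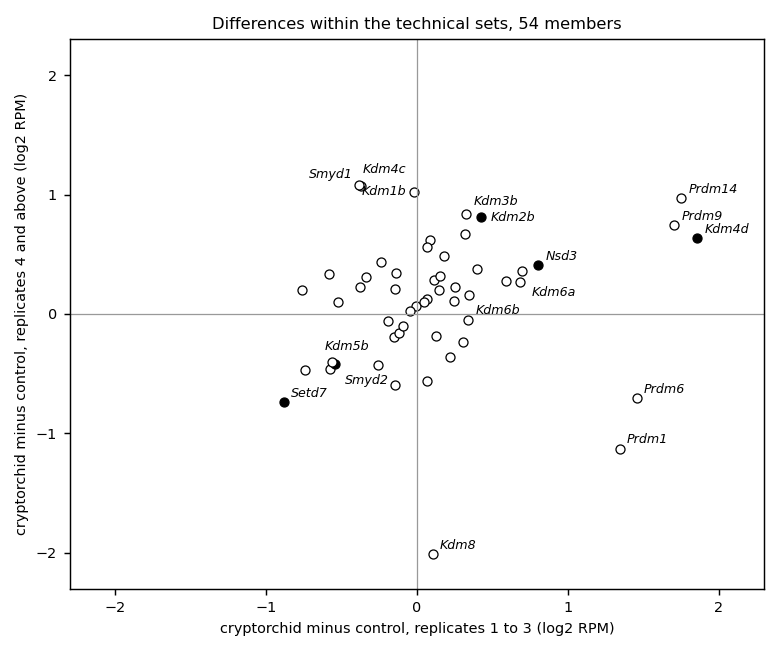
Difference in mean log2 RPM (cryptorchid minus control) of 54 of the 55 members tested within replicates 1 to 3 (x axis, 3 against 3 libraries) and within the later replicates (y axis, 2 control against 4 cryptorchid libraries); filled points have an unadjusted limma P under 0.05 over all 12 libraries. The 5 filled points, which were picked over the same libraries, lie in the quadrants of equal sign. Kdm8 (0.10 and -2.01), Prdm1, Prdm6, Smyd1 and Kdm4c change sign between the axes.

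Writers and erasers work in complexes and depend on metabolites, and 60 genes for their partners were tested beside them. Of these, 2 were higher and 1 was lower at an unadjusted limma *P* under 0.05, and the median difference was 0.012. None of the 13 COMPASS subunit genes passed (median -0.0033), including *Wdr5*, *Rbbp5*, *Ash2l* and *Dpy30*, the core of the COMPASS complexes. The 11 genes of the LSD1-CoREST complex had a median difference of 0.17. None of the 9 genes of the DOT1L and super elongation complexes (median 0.039) and none of the 9 genes of KDM5 and H3K36 reader complexes (median 0.0023) passed. Of 18 genes that supply S-adenosylmethionine or 2-oxoglutarate or remove their inhibitors, *Mthfd1*, a folate enzyme, rose by 0.67 (adjusted *P* = 0.479), and *Shmt2*, the mitochondrial serine hydroxymethyltransferase, fell by 0.99 (adjusted *P* = 0.366). The share of partner genes that passed was below the 9.48% of all genes, and no partner gene passed after adjustment.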

How the data were processed

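RNA-seq reads of 12 libraries were trimmed by the authors with Trim Galore 0.6.6, mapped to mm10 with HISAT2 2.1.0 and counted over protein-coding genes in SeqMonk, and the deposited values are log2 RPM, not pooled over replicates. The strand used in counting is not given in the sources used here. Groups and replicate numbers were read from the sample titles. The study called genes by a count model. As the deposited values are on the log2 scale, linear models were fitted instead with limma 3.58.1 (R 4.3.3), with moderated variances that follow a trend on the mean level, over the 16932 of 21859 genes with a log2 mean RPM above -1. *P*-values are two-sided and were adjusted by Benjamini-Hochberg over all 16932 genes. For single genes an exact rank sum test, two-sided, was run over the 792 splits of 12 libraries, for which 0.00253 is the smallest possible *P*-value. The scripts were tested on simulated data.

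Reads per value were recovered from the steps between low values (100% of values under 1000 reads were whole within 0.05 reads, with genes without reads left aside). Read numbers give counting error only. Over 31 pairs of replicates the counts differed by 12.8 to 253 times what sampling noise gives, so each library was 1 sample. Exon lengths and positions are those of GENCODE vM21 (GRCm38, the build of mm10), and promoter windows those of RefSeq GRCm38.p6. Python 3.11.15 with pandas 2.3.3 and scipy 1.17.1 was used for the remaining steps.

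The members, their roles, the partner and marker lists and the sets of libraries were chosen with earlier results of these data known. Members given in full are *Kdm6a*, *Kdm6b*, those with *P* under 0.05 or with separated groups, and the 2 with the smallest *P*-values of each role. Others are named by level, outlying libraries, the filter or role. *Mrg15*, listed as a partner, is not a symbol of the table, where the gene is *Morf4l1*. The values of 1 member and 1 partner gene are not reported here. The alternatives were quantile normalization, median centring, log2(RPM + 1), log2(RPM + 0.1), a common floor, no filter, a filter at 2, weights for each library (array weights), voom fitted to recovered reads, a block for the replicate number, the library set as a term, each set alone, the exact test, and each library left out in turn.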

Additional observations from a re-analysis of the deposited data

Results flagged for a closer look

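In 4 of the 40 sets of values of the named members (20 genes in 2 groups), 1 library lay far from the others of its group by Dixon's criterion, which chance meets in about 1 of 20 sets. Cryptorchid replicate 2 was low for *Kdm1b* (5.59 log2 RPM, with the others between 7.20 and 7.84). The same library was low for *Kdm2b* (6.81, with the others between 7.51 and 7.76). Control replicate 2 was low for *Kdm4d* (-0.60, with the others between 1.65 and 2.28). Cryptorchid replicate 1 was low for *Kmt5a* (2.15, with the others between 4.11 and 5.20).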

How the results depend on the processing

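Over the alternatives other than left-out libraries, the differences of the 20 members given in full kept their direction and side of the threshold 239 times, missed the threshold 15 times, passed it anew 21 times and changed sign 4 times. From 3 members higher and 2 lower at an unadjusted *P* under 0.05, array weights gave 8 and 4 (21.8% of the members, against 20% of all genes), replicates 1 to 3 alone gave 0 and 0 (3.74% of all genes), and the later replicates alone gave 5 and 5 (18.2%, against 17.3% of all genes). Voom gave 1 lower, since *Smyd2* missed the threshold. The 1 member past 2-fold (*Kdm4d*) became 0 after quantile normalization, median centring, no filter, a filter at 2, the library set as a term and replicates 1 to 3 alone (3.73% to 7.18% of all genes). In the later replicates alone it became 3 members (*Kdm1b*, *Smyd1* and *Kdm8*, 5.45%, against 7.91% of all genes). After adjustment 0 members passed, and with array weights 1 did (*Kdm2b*, adjusted *P* = 0.0409, when 2.81% of all genes did). *Kdm1a* turned to 0.10 with array weights and to 0.33 in the later replicates alone, *Kdm1b* to -0.0201 in replicates 1 to 3 alone, and *Kdm6b* to -0.0489 in the later replicates alone. The cause was not tested.

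With single libraries left out, 1 to 6 members were higher, 1 to 3 lower, 0 to 2 past 2-fold and 0 past the adjusted threshold, and the median difference was 0.086 to 0.27. In these fits 5.45% to 14.5% of the members had a *P* under 0.05, against 7.25% to 12.9% of all genes. Of all genes 4.9% to 7.37% were past 2-fold and 0% to 0.0532% past the adjusted threshold. The lowest count of higher members came without control replicate 2 (5.45% passed either way, against 7.91% of all genes). The highest came without cryptorchid replicate 1 (14.5%, against 10.3% of all genes), where *Setd1a*, *Kmt5a* and *Kmt2a* passed. The count of lower members was 1 without cryptorchid replicate 5 or 7 and 3 without cryptorchid replicate 3. *Kdm3b* passed without control replicate 1 or 5 or cryptorchid replicate 2 or 3, *Setd1a* without control replicate 3, *Kdm3a* without cryptorchid replicate 3 and *Kdm1b* without cryptorchid replicate 2. *Kdm1a* (range -0.18 to 0.063) changed sign without control replicate 2 (0.059), cryptorchid replicate 1 (0.0022) or cryptorchid replicate 3 (0.063), *Kdm6b* (range -0.034 to 0.48) without control replicate 1 and *Setd6* (range -0.044 to 0.47) without control replicate 3.

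Same-numbered libraries of the groups had correlated deviations for replicates 1 to 4 (Pearson's r across genes 0.347, 0.363, 0.411 and 0.250). Control replicates 1 to 4 each correlated best with the cryptorchid library of the same number. Control replicate 5 did not (0.0488) and correlated best with cryptorchid replicate 7. Pairing by number is therefore possible for part of the libraries, but the labels do not give it, so it was used only as an alternative. With the replicate number as a block, over the 5 shared numbers, 9 members were higher and 4 lower (23.6% of the members, against 22.2% of all genes). Past 2-fold were 2 members (3.64%, against 9.91% of all genes), and 2 passed the adjusted threshold (*Kdm5b* and *Nsd3*, when 5.60% of all genes did). Of the partner genes, 9 had a *P* under 0.05, in place of 3. In this block fit *Kdm6a* also passed the unadjusted threshold (0.57, adjusted *P* = 0.174), as did *Kdm3b* and *Kdm5b*, whereas *Kdm6b* did not.

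For members with few reads, depth limits the precision: 6 of the 55 tested had under 10 reads in at least 1 library.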
